A study of Homo sapiens with 9 samples.

Results

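H3K27ac and H3K27me3 were compared across the genome of control LNCaP cells, an established human prostate cancer line, using the region list deposited for each mark. The members were all listed regions: 58134 for H3K27ac and 86120 for H3K27me3, together 144254 of the 335291 regions and peaks in the 6 lists analysed. Control cells carried the empty plko.1 lentiviral vector, and the knockdown cells used below for reference carried shEZH2 in its place. Cells were grown with 10% serum and, per the labels' protocols, fixed 2 to 3 days after infection. Each mark had 1 library and no input library was used here, so the antibody, the library and the mark cannot be told apart and no difference between the lists could be set against a spread between replicates. Intervals below are 95% intervals over regions or windows, which are not replicates, and cover counting error only. No test was run.

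Acetylation and trimethylation occupy the same lysine of histone H3, so a single histone tail carries one or the other. H3K27ac is laid down by acetyltransferases such as p300 at active promoters and enhancers, usually over short stretches. H3K27me3 is written by EZH2 within Polycomb repressive complex 2 over silenced genes, often spreading over long domains. In prostate cancer cells EZH2 is known both as the writer of H3K27me3 and, as the series title states, for proposed activating roles apart from Polycomb.

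The H3K27ac library held 17438009 tags and the H3K27me3 library 33289172. Values below are normalised tags: the authors set every library to 10000000, so that 1 tag counted 0.573 in H3K27ac and 0.300 in H3K27me3. Per the file headers both lists were called with windows of 150 bp and a minimum distance of 370 bp at a false discovery rate of 0.001. A call needed 9 tags in a window for H3K27ac and 13 for H3K27me3, which is 34.4 and 26.0 normalised tags per kb, 1.32-fold more for H3K27ac. No annotation or sequence of the files' build, hg19, was used here, so regions are given by coordinates without gene names, and neither the cell line's marker genes nor the sequence of any region was examined.

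H3K27ac lay in fewer, stronger regions and H3K27me3 in many weak ones. H3K27ac regions held 46.1% of their library's tags and H3K27me3 regions 16.2%. The median H3K27ac region held 19.5 normalised tags (18.9 to 19.5), and 80% of regions lay between 5.73 and 219.1. The median H3K27me3 region held 6.31 tags, with the same percentiles at 3.91 and 30.0. The medians differed 3.09-fold. At least 100 tags were held by 20.7% of H3K27ac regions and by 1.80% of H3K27me3 regions.

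Width separated the lists less firmly. The median width was 428 bp (422 to 434) for H3K27ac and 212 bp (210 to 213) for H3K27me3, a ratio of 2.02. Regions of at most 200 bp, little more than the 150 bp window of the caller, made up 27.3% of the H3K27ac list and 47.0% of the H3K27me3 list. Regions of at least 1 kb numbered 15720 and 7980. Among regions with at least 20 normalised tags the ratio of median widths was 0.987, without an interval of its own, so the medians were nearly equal. Tags depend on both width and density, so a minimum of tags keeps mainly wider regions of the less dense mark. This shift is thus in part set by the filter. The widest class was small in both marks. Outside unplaced contigs and the longest gaps of chromosomes, 46 H3K27ac regions (0.0832%) and 31 H3K27me3 regions (0.0378%) were over 10 kb wide.

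The marks also differed in density, by 1.57-fold in the medians of the whole lists, and the ratio was higher in wide regions. Left out here were contigs not placed on a chromosome, mitochondrial DNA, and the 2 Mb flanking the longest unlisted gap of every chromosome. That sequence held 5.69% of the H3K27ac tags but 24.4% of the H3K27me3 tags. In regions of up to 200 bp the median was 37.9 normalised tags per kb for H3K27ac and 27.9 for H3K27me3, a ratio of 1.36, which is close to the 1.32-fold gap between the calling thresholds. From 501 to 1000 bp the medians were 50.9 and 28.7 per kb. From 1001 to 2000 bp they were 81.9 (80.8 to 83.2) and 32.2 (32.0 to 32.5), and from 2001 to 5000 bp 111 and 37.6, a ratio of 2.96. The ratio was 3.02 from 5001 to 10000 bp and 2.53 in the few regions above that. H3K27ac thus rose 2.93-fold in density from the narrowest regions to those of 2001 to 5000 bp, and H3K27me3 rose 1.35-fold. Wide H3K27ac regions were dense as well as long, whereas H3K27me3 regions of up to 1 kb stayed near the density that a call required.

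EZH2 was a readout that played no part in choosing these lists. In both marks the share of regions with an EZH2 peak rose with width up to 5000 bp. A longer region can meet a peak through its length alone, and the shares were not corrected for this. An EZH2 peak of control cells lay in 12.1% (11.8 to 12.3) of H3K27ac regions and in 9.86% (9.66 to 10.1) of H3K27me3 regions outside contigs and gaps. At matched width the order was the other way round. In regions of 1001 to 2000 bp the share was 28.3% for H3K27ac and 40.6% for H3K27me3, a difference of 12.4 percentage points (Newcombe interval 10.8 to 14.0). In regions of 2001 to 5000 bp it was 33.9% and 56.6%, a difference of 22.7 points (20.2 to 25.2). In regions of up to 200 bp the shares were 2.00% and 2.20%, and the interval of their difference, -0.0788 to 0.457 points, included 0. It also included 0 for the 2 widest classes, which held few regions. The shares there were 38.3% and 43.5% for H3K27ac and 43.7% and 54.8% for H3K27me3, the latter 2 below that of 2001 to 5000 bp.

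**Figure D1:**
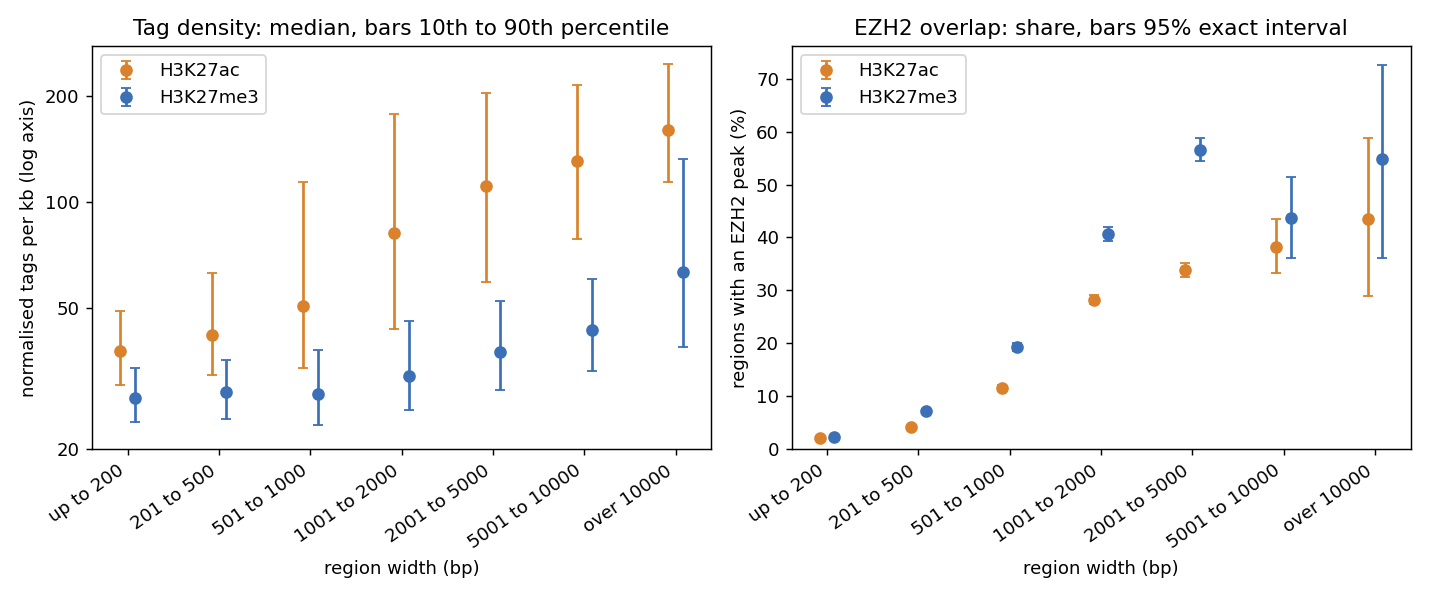
Left, normalised tags per kb (log axis) against region width for H3K27ac and H3K27me3 in control cells, as medians with bars from the 10th to the 90th percentile. Right, the share of the same regions that overlap an EZH2 peak, with 95% exact intervals: H3K27ac is denser in each width class, with 111 against 37.6 tags per kb from 2001 to 5000 bp, while EZH2 lies on 33.9% and 56.6% of those regions.

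The signal of both marks was concentrated in a minority of regions. On assembled chromosomes the 10% of regions with the most tags held 56.5% of listed H3K27ac tags and 53.3% of listed H3K27me3 tags. The strongest 7.85% of H3K27ac regions and 8.35% of H3K27me3 regions held 50% of those tags. The small regions still weighed differently: those of up to 200 bp held 2.19% of H3K27ac tags and 13.7% of H3K27me3 tags.

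The next comparison asked how the marks divided the genome at the scale of domains. Tags were summed in 100 kb windows by the midpoint of each region, and a window was compared where both sums together reached 20 normalised tags. A mark was called dominant where its sum, with 1 tag added to both, was at least 4-fold higher. Of 16785 windows compared, H3K27ac dominated 10098 (60.2%), H3K27me3 dominated 4784 (28.5%), and 1903 (11.3%) had neither mark dominant. In windows of 1 Mb the shares were 52.5%, 14.3% and 33.2%. H3K27ac-dominated windows of 100 kb carried 92.6% of the H3K27ac tags on assembled chromosomes and 4.02% of the H3K27me3 tags. H3K27me3-dominated windows carried 73.7% of the H3K27me3 tags and 0.466% of the H3K27ac tags.

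Most windows held 1 mark only. No H3K27me3 region was listed in 8032 (79.5%) of the H3K27ac-dominated windows, and no H3K27ac region in 3961 (82.8%) of the H3K27me3-dominated windows. Both marks were listed in 4792 windows, 28.5% of those compared, and of these 39.7% had neither mark dominant. The log2 ratio therefore had 2 separate peaks, in part by construction, since a window with a single mark and at least 20 tags lies beyond 4.39 on either side. The median log2 ratio was 7.21 in H3K27ac-dominated and -5.87 in H3K27me3-dominated windows.

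**Figure D2:**
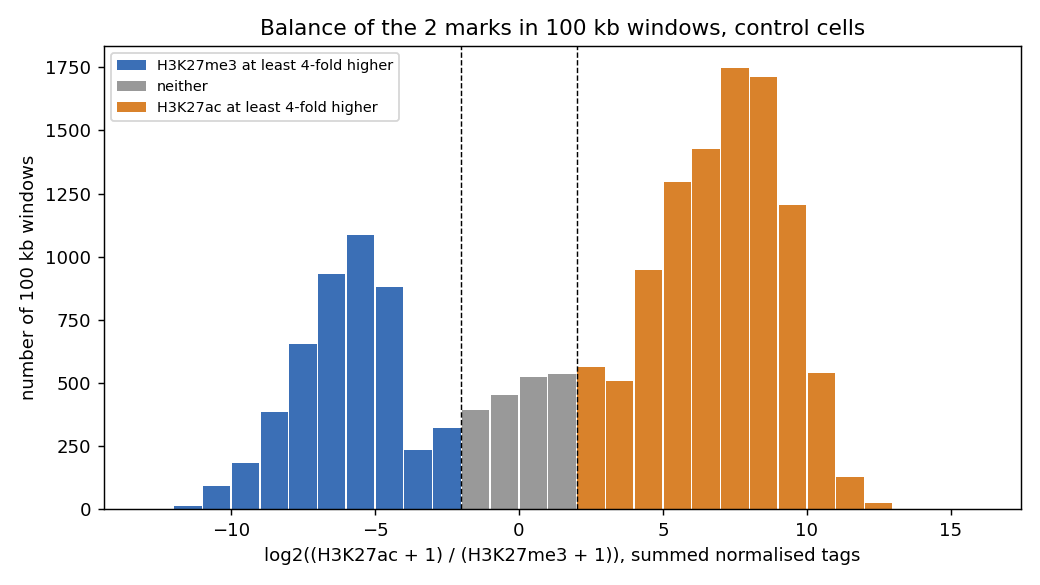
Number of 100 kb windows (vertical axis) by the log2 ratio of summed H3K27ac over H3K27me3 normalised tags in control cells (horizontal axis), with dashed lines at a 4-fold difference. The 10098 windows dominated by H3K27ac and the 4784 dominated by H3K27me3 form separate peaks, with 1903 windows between the lines.

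The 2 classes of window differed in their listed regions. A median H3K27ac-dominated window held 4 H3K27ac regions covering 2636 bp with 227 normalised tags. A median H3K27me3-dominated window held 8 H3K27me3 regions covering 2762.5 bp with 88.8 tags. The covered length was nearly the same, and H3K27me3 reached it with more and smaller listed regions. Region number and width can depend on the 150 bp calling window. Whether it cut broader weak stretches into several regions was not tested. Since more tags were listed for H3K27ac than for H3K27me3 on assembled chromosomes, by 1.74 on the log2 scale, the split between the classes depended on scaling. With both marks scaled to equal totals, 48.7% of 18876 windows were dominated by H3K27ac and 39.2% by H3K27me3. H3K27ac windows then made up 55.4% of all dominated windows, against 67.9% with the authors' scaling. From regions with at least 20 tags alone, 3106 windows were dominated by H3K27me3 in place of 4784.

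Neighbouring windows were often of the same class. Of all 30124 windows between the first and the last listed region of each chromosome, 33.5% were H3K27ac-dominated and 15.9% H3K27me3-dominated. After an H3K27ac-dominated window, the next window was again H3K27ac-dominated in 61.5% of cases and H3K27me3-dominated in 6.91%. After an H3K27me3-dominated window, the next was of the same class in 45.7% of cases and H3K27ac-dominated in 14.9%. Runs of at least 5 adjacent windows numbered 591 for H3K27ac and held 43.7% of its windows. For H3K27me3 they numbered 158 and held 1101 of 4784. Single windows made up 47.4% of H3K27ac runs and 63.2% of H3K27me3 runs.

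The longest runs show what an extended domain of each mark looked like. The longest H3K27ac run reached 2.9 Mb, on chromosome 12 from 121.3 to 124.2 Mb, with 148 H3K27ac regions and 18348 normalised tags against 4 H3K27me3 regions and 19.2 tags. On chromosome 16, from 2 to 3.8 Mb, a run of 18 windows held 169 H3K27ac regions with 25997 tags and 62 EZH2 peaks. A run of the same length on chromosome 12, from 49.4 to 51.2 Mb, held 84 H3K27ac regions with 6546 tags. The 2 runs on chromosome 12, of 29 and 18 windows, held 32 and 25 EZH2 peaks. EZH2 was thus also listed where nearly all tags of the 2 marks were acetylation. The mean over all H3K27ac-dominated windows was 0.895 peaks per window. It was 1.78 in H3K27me3-dominated windows and 2.04 where neither mark dominated. The EZH2 list of shEZH2 cells was shorter, 9493 peaks against 23060 in control. That list held 8 and 9 peaks in the 2 runs on chromosome 12 and 15 in the run on chromosome 16.

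H3K27me3 runs were shorter on average, with a mean of 1.84 windows against 2.60 for H3K27ac. The longest of them held many more listed regions than the H3K27ac runs above. On chromosome 18, from 75 to 76.8 Mb, 553 H3K27me3 regions held 10282 tags, with 3 H3K27ac regions of 33.8 tags in all and 121 EZH2 peaks. On chromosome 1, from 3.9 to 5.7 Mb, 535 H3K27me3 regions held 9976 tags, with 62 EZH2 peaks. On chromosome 20, from 58.9 to 60.6 Mb, 596 H3K27me3 regions held 12038 tags, with 2 H3K27ac regions and 74 EZH2 peaks. In the shEZH2 libraries every window of these 3 runs, 18, 18 and 17, was again dominated by H3K27me3. The EZH2 list of shEZH2 cells, 9493 peaks against 23060 in control, held 45, 17 and 35 peaks there.

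EZH2 peaks of control cells, from which the windows were not built, were then laid over them. At least 1 EZH2 peak lay in 49.8% (48.8 to 50.8) of H3K27ac-dominated windows, in 69.1% (67.8 to 70.4) of H3K27me3-dominated windows and in 72.5% (70.4 to 74.5) of windows with neither mark dominant. The mean number of EZH2 peaks per window was 0.895, 1.78 and 2.04. At least 5 EZH2 peaks lay in 2.01%, 9.45% and 12.2% of windows. The classes also differed in position: 9.14%, 14.4% and 17.6% of windows lay within 5 Mb of chromosome ends. Near the longest gaps lay 2.62%, 3.20% and 6.52%. Counted per region, EZH2 lay on 12.0%, 12.3% and 17.6% of H3K27ac regions in the 3 classes, the same order. For H3K27me3 regions the order was different, with 12.8%, 9.49% and 12.3%.

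In shEZH2 cells the H3K27 lists were called with other settings, windows of 1000 bp joined into regions, so only the class of each window was compared. Over that pair of libraries H3K27ac dominated 44.7% of 23651 windows compared and H3K27me3 38.5%. Of the windows dominated by H3K27me3 in control cells, 4618 (96.5%, 96.0 to 97.0) were in the same class in shEZH2 and 1 was H3K27ac-dominated. Of those dominated by H3K27ac, 8922 (88.4%, 87.7 to 89.0) were in the same class, 1150 had neither mark dominant and 9 were H3K27me3-dominated. Windows with neither mark dominant in control cells were H3K27me3-dominated in shEZH2 in 21.9% of cases, and 49 were H3K27ac-dominated. The knockdown and the change of calling settings cannot be told apart here.

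The windows with the highest sums were extreme in 1 mark. The highest of all for H3K27ac, on chromosome X from 114.9 to 115 Mb, held a single region that is described further on. The H3K27ac window from 46.4 to 46.5 Mb on chromosome 22 held 12836 normalised tags in 15 regions that covered 65.6 kb, with no H3K27me3 region. The window from 51.3 to 51.4 Mb on chromosome 19 held 11279 tags in 13 regions with 4 EZH2 peaks, and that from 114 to 114.1 Mb on chromosome 11 held 7118 tags in 22 regions with no EZH2 peak. The window from 80 to 80.1 Mb on chromosome 17 held 6788 tags in 25 regions. In shEZH2 cells these 4 windows held 12745, 6978, 4754 and 6131 H3K27ac tags and again no H3K27me3 region. Those regions were called with other settings and counted by midpoint, so a change in these sums cannot be told apart from the calling.

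Of the 5 H3K27me3 windows with the highest sums, 4 held some H3K27ac, whereas the 5 of H3K27ac held no H3K27me3. On chromosome 5, from 17.5 to 17.6 Mb, 3 H3K27me3 regions held 7673 tags, and all 12 small H3K27ac regions of the window, 87.2 tags in total, lay on them. On chromosome 8 the windows from 86.7 to 86.8 and from 86.8 to 86.9 Mb held 6867 and 4906 H3K27me3 tags with 12 and 9 EZH2 peaks. In shEZH2 the first had 13811 H3K27me3 tags and the second 158. A shEZH2 region from 86726461 to 86845889 that spanned both was counted in the first by its midpoint. On chromosome 1, from 2.6 to 2.7 Mb, H3K27me3 reached 5264 tags and H3K27ac 53.9. On chromosome 19, from 36.7 to 36.8 Mb, H3K27me3 reached 5223 tags and H3K27ac 382, with 4 EZH2 peaks in control and none in shEZH2.

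Single regions at the top of each list differed in the same way. The regions named here lie outside contigs and gaps. The sequence left out held wider regions of both marks and an H3K27me3 region of 186314 tags. The H3K27ac region with the most tags, also the widest of those outside, was on chromosome X from 114959455 to 115005727, 46273 bp wide with 35003 normalised tags. It held 756 tags per kb, and in shEZH2 cells the region there held 33047 tags. No repeat annotation was used, so whether this is repeated sequence, where reads of several copies can pile up, was not tested. No H3K27me3 region lay within 1389 kb of it. The next were on chromosome 19 from 13105421 to 13130507 with 4890 tags, on chromosome 17 from 80056472 to 80073644 with 4743 tags, on chromosome 22 from 46464172 to 46478155 with 4396 tags and on chromosome 15 from 89655308 to 89685556 with 4396 tags. Their densities ran from 145 to 314 tags per kb. The widest also included chromosome 16 from 88819850 to 88841779, 17.9 kb from the nearest H3K27me3 region, and chromosome 7 from 89839757 to 89860543, with 3432 tags and 1 EZH2 peak.

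The H3K27me3 regions with the most tags outside contigs and gaps were on chromosome 19 from 36759208 to 36800888 with 5194 tags and from 37759484 to 37796316 with 4684 tags. Neither held an EZH2 peak in control or shEZH2 cells. Chromosome 1 from 2583038 to 2633249, the widest of these at 50212 bp, held 4772 tags and 2 EZH2 peaks. On chromosome 5 the regions from 17580596 to 17599672 and from 17517643 to 17530745 held 4250 and 3418 tags at 223 and 261 tags per kb, with 2 EZH2 peaks each. Each of these 5 contained between 3 and 12 small H3K27ac regions, whose tags summed to between 21.2 and 143. The H3K27me3 region on chromosome 1 from 228742587 to 228782623, 40037 bp wide with 2534 tags, contained 29 H3K27ac regions with 694 tags and no EZH2 peak. The widest also included 2 on chromosome 4, from 9225750 to 9274647 and from 9324590 to 9370880, at 66.9 and 66.3 tags per kb. With no input library, what part of the weak H3K27ac inside these dense H3K27me3 regions is background was not tested.

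The marks lay far apart. Outside contigs and gaps the median distance from an H3K27ac region to the nearest H3K27me3 region was 127 kb (125 to 129), and from an H3K27me3 region to the nearest H3K27ac region 76.4 kb (75.5 to 77.1). To the nearest region of the same mark the medians were 768 bp and 781 bp, where the calling settings allowed no less than 220 bp. Within 10 kb, 75.6% of H3K27ac regions had another H3K27ac region and 7.48% (7.26 to 7.70) an H3K27me3 region. For H3K27me3 regions these shares were 88.3% and 8.71% (8.52 to 8.91). A distance to the other mark also depends on how many regions that list holds, here 81987 and 55310.

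**Figure D3:**
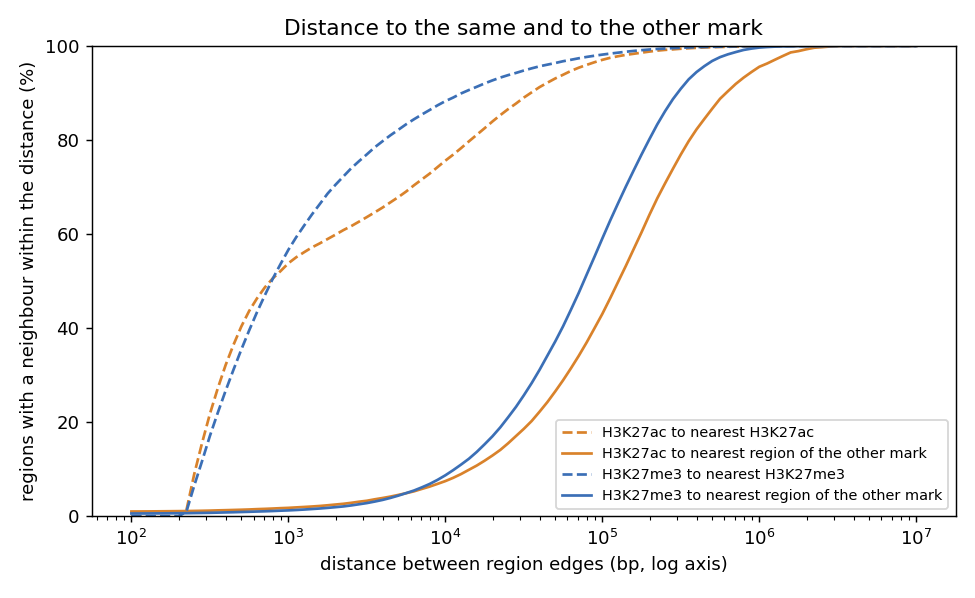
Share of regions (vertical axis) with a neighbour within a given distance between region edges (horizontal axis, log scale), to the same mark (dashed) and to the other mark (solid). Within 10 kb, 75.6% of H3K27ac and 88.3% of H3K27me3 regions have a neighbour of their own mark, and 7.48% and 8.71% one of the other mark.

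Contact between the marks was concentrated on contigs and around gaps. Over the whole lists 1212 H3K27ac regions overlapped H3K27me3 by at least 1 bp, and 57.7% of these lay there, in sequence that held 4.86% of H3K27ac regions. Elsewhere the overlap was 0.928% (0.849 to 1.01) of H3K27ac regions and 0.527% (0.479 to 0.579) of H3K27me3 regions.

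Strong regions of both marks lay closer to the other mark by median distance. Between the lowest and the highest 10% of regions by tags, the median went from 135 kb to 106 kb for H3K27ac and from 79.3 kb to 65.5 kb for H3K27me3. Within 10 kb the marks went in opposite directions. The 10% of H3K27ac regions with the most tags had an H3K27me3 region within 10 kb in 4.95% of cases (4.40 to 5.56), against 8.08% (7.38 to 8.83) in the lowest 10%. For H3K27me3 the share was 12.3% (11.6 to 13.0) in the highest 10% and 7.96% (7.39 to 8.57) in the lowest. Toward their own kind they also differed. Of the strongest H3K27me3 regions 95.4% had another H3K27me3 region within 10 kb, against 79.8% of the weakest, while for H3K27ac the shares were 73.4% and 76.2%.

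Tags followed distance accordingly. H3K27ac regions that overlapped H3K27me3 held a median of 13.8 tags (12.0 to 16.1), and those up to 1 kb away 13.2. The median was highest, 22.4 tags (21.8 to 23.5), at 10 to 100 kb from H3K27me3, and it was 14.9 beyond 1 Mb. H3K27me3 regions were strongest in contact with H3K27ac, with a median of 16.5 tags (14.4 to 19.8), against 6.61 at 1 to 10 kb and 6.01 at 100 kb to 1 Mb. Overlapping H3K27me3 regions were also wider, at a median of 455.5 bp against 204 bp at 100 kb to 1 Mb, and the part of width in this was not tested.

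EZH2 was listed most often where the marks met. It lay on 53.2% (48.8 to 57.6) of H3K27ac regions that overlapped H3K27me3, on 41.1% of those up to 1 kb away, on 14.8% at 10 to 100 kb and on 2.28% (1.73 to 2.96) beyond 1 Mb. The 513 overlapping H3K27ac regions were partly clustered, with 25 in a single window of chromosome Y and 15 in one of chromosome 1. Without repeat annotation or an input library, whether reads of several copies pile up at such contacts was not tested. Among H3K27ac regions of up to 500 bp the shares were 52.1%, 36.8%, 3.01% and 0.133%. On H3K27me3 regions EZH2 fell from 64.4% (59.6 to 68.9) in contact with H3K27ac to 24.0% at up to 1 kb and 9.44% at 10 to 100 kb. It was 18.9% (14.6 to 24.0) among the 285 H3K27me3 regions more than 1 Mb from H3K27ac, of which 53 were on chromosome 13 and 48 on chromosome 8.

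**Figure D4:**
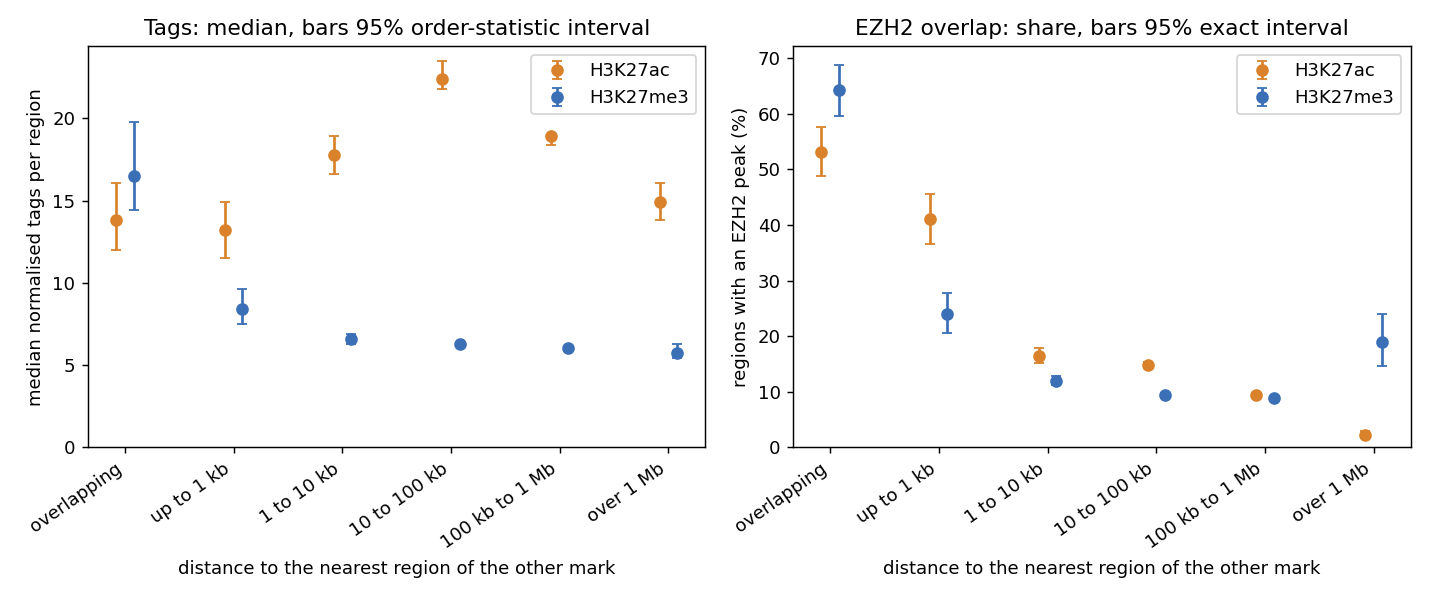
Median normalised tags per region with 95% order-statistic intervals (left) and share of regions overlapping an EZH2 peak with 95% exact intervals (right), by distance to the nearest region of the other mark, for H3K27ac and H3K27me3 outside contigs and gaps. EZH2 lies on 53.2% and 64.4% of overlapping regions and on 14.8% and 9.44% at 10 to 100 kb.

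Regions out of place in a window of the other mark were weak. H3K27ac regions in H3K27me3-dominated windows numbered 1098, with a median of 8.60 tags and 200 bp, against 22.4 tags and 481 bp in H3K27ac-dominated windows. A median of 5.21 kb separated them from H3K27me3. H3K27me3 regions in H3K27ac-dominated windows numbered 4911, with a median of 5.41 tags and 190 bp, against 6.61 tags and 228 bp in their own windows. As dominance was defined by summed tags, weak regions were the ones that could lie there. Even in windows with neither mark dominant the marks were mostly apart: 6.49% of H3K27ac regions overlapped H3K27me3, and the median distance was 14.9 kb.

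The 5 windows with the highest lesser sum of the 2 marks showed 2 arrangements. In 4 of them the marks lay on the same sequence. Without repeat annotation or an input library, whether reads of several copies pile up there was not tested. On chromosome 1, from 161.4 to 161.5 Mb, 15 of 17 H3K27ac regions overlapped H3K27me3, with 1138 and 1968 normalised tags. The same was seen in 25 of 30 H3K27ac regions on chromosome Y from 13.4 to 13.5 Mb, in 9 of 12 on chromosome 9 from 68.4 to 68.5 Mb and in 11 of 13 on chromosome 2 from 89.8 to 89.9 Mb. On chromosome 9 from 139 to 139.1 Mb, by contrast, 4 H3K27ac regions with 937 tags and 27 H3K27me3 regions with 987 tags lay side by side without overlap, 1.77 kb apart at the closest, with 13 EZH2 peaks.

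Chromosomes differed widely in the balance of the marks. The log2 ratio of summed H3K27ac over H3K27me3 tags was above 0 on all 24 chromosomes with the authors' scaling and had a median of 1.87. With tags scaled to equal totals it was above 0 on 14 of 24. Chromosome X was highest at 3.97, a 15.6-fold excess of H3K27ac, and at 2.22, or 4.67-fold, with equal totals. It carried 2.26% of H3K27ac tags, 0.484% of H3K27me3 tags and 0.984% of EZH2 peaks on these chromosomes. Its 419 H3K27me3 regions compared with 1394 H3K27ac regions, and apart from chromosome 6 it was the only chromosome with more H3K27ac than H3K27me3 regions. The single region of 35003 tags made up 34.2% of its H3K27ac tags, and without it the ratio was 3.36, still the highest. Whether that region is repeated sequence was not tested.

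H3K27ac dominated 86.4% (82.9 to 89.4) of 449 windows compared on chromosome X, against 60.2% over all chromosomes, and H3K27me3 dominated 10.2% (7.60 to 13.4), against 28.5%. On autosomes the H3K27me3 share ran from 18.5% to 38.2%. The H3K27ac regions of chromosome X were of ordinary size, with a median of 424.5 bp and 20.1 tags, and its H3K27me3 regions had a median of 196 bp and 5.71 tags, at the lower end of the autosomes. The median distance from its H3K27ac regions to H3K27me3 was 438 kb.

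Among autosomes the ratio was highest on chromosome 6, at 2.67, and on chromosome 3, at 2.35. It was lowest on chromosome 8, at 0.74, chromosome 20, at 0.84, and chromosome 18, at 0.89. Chromosome 8 carried 3.62% of H3K27ac tags and 7.28% of H3K27me3 tags, and chromosome 20 2.61% and 4.86%. On chromosome 20 the H3K27me3 list had 4166 regions and the H3K27ac list 1426. Chromosome Y, with 225 and 231 regions, had the lowest ratio of all at 0.44. By windows the order was different: H3K27ac dominated 66.2% (53.4 to 77.4) of its 65 windows compared and H3K27me3 15.4% (7.63 to 26.5). A single window, from 13.4 to 13.5 Mb, held 1677 of its 9330 H3K27me3 tags. The H3K27me3-dominated share of windows was 38.2% (33.6 to 43.0) on chromosome 18, 37.2% (33.8 to 40.6) on chromosome 8 and 35.4% on chromosome 20. Chromosome copy number was not measured here.

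Chromosome 19, the most gene-dense human chromosome, held the strongest acetylation per region. Its H3K27ac regions had the highest chromosome median, 36.1 normalised tags and 637 bp, against 15.2 tags and 342 bp on chromosome 18. H3K27me3 medians varied far less, from 5.71 to 6.91 tags on autosomes and X and 7.51 on chromosome Y. H3K27me3 was the more terminal mark. Within 5 Mb of the outermost listed regions of a chromosome lay 25.2% (24.9 to 25.5) of its regions and 32.2% of its tags. For H3K27ac these shares were 12.9% (12.7 to 13.2) and 16.9%. Of the 100 kb windows compared, 11.6% lay there.

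The order of chromosomes was much the same in the shEZH2 pair of libraries. Spearman's rank correlation over the 24 chromosomes was 0.92. For the values themselves Pearson's r was 0.94, and 0.89 without chromosome X. Both describe libraries from 1 cell line. Chromosomes X and 6 ranked first and second in both pairs, and chromosomes 18, 8 and 20 were the 3 lowest autosomes in both. Chromosome Y ranked 24 in control cells and 19 in shEZH2. In 19 of 24 chromosomes the rank differed by at most 3 places, and the largest shift was 6. The ratio was lower in shEZH2 on all 24, but those lists were called with wider windows, so the levels were not compared further.

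**Figure D5:**
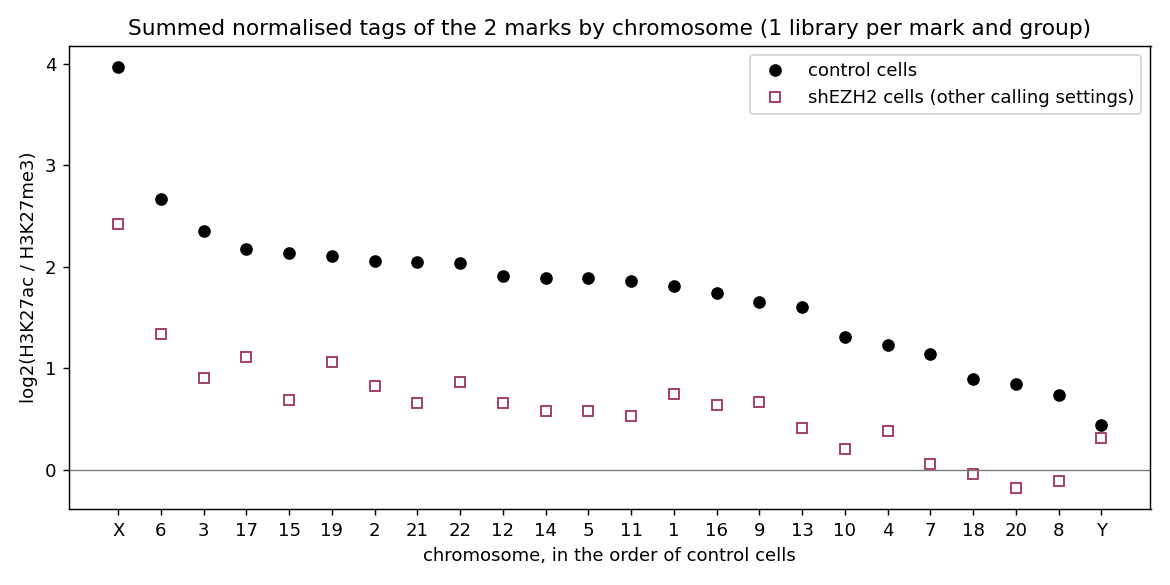
Log2 ratio of summed H3K27ac over H3K27me3 normalised tags (vertical axis) for each chromosome (horizontal axis, ordered by control cells), in control cells (filled) and shEZH2 cells (open squares), 1 library per mark and group. Chromosome X is highest in both, at 3.97 in control, and chromosomes 18, 20 and 8 lie at 0.89 to 0.74 in control and below 0 in shEZH2.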

How the data were processed

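ChIP-seq of LNCaP cells gave 1 library each for H3K27ac and H3K27me3 in control cells. Of 9 samples in the series 6 had lists, and the others were not used here. The submitters' processing notes name BWA 0.6.1, HOMER 4.1 and hg19. Each library was called alone, per the file headers. The deposited signal is a region's tag number after the authors set the library to 10000000. The deposited score, the caller's own, was used to rank regions within a list. The deposited clonal fold ratio, which the caller uses against duplicated tags, entered no comparison. Width was end minus start plus 1, and distances ran from edge to edge. Gaps were located from the 6 lists themselves.

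Medians have order-statistic intervals and shares exact binomial (Clopper-Pearson) intervals. The code was tested on simulated lists, and 58134 distances matched bedtools 2.31.1. Software was scipy 1.17.1 and pandas 2.3.3 on numpy 2.4.6, with Python 3.11.15, and figures came from matplotlib 3.10.9. Named regions were the 5 with most tags and the 5 widest of each mark, the 5 windows of highest sum per dominant mark, the 5 of highest lesser sum, the 3 longest runs per mark and the 3 chromosomes highest and lowest in the ratio, all but the chromosomes outside contigs and gaps. As no hg19 annotation was used, gene lists and marker genes were not examined. The comparisons and rules were chosen with earlier results of these data known. Classes of width, distance and deciles, equal-width EZH2 shares and chromosome ends were added after the data were seen.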

Additional observations from a re-analysis of the deposited data

How the results depend on the processing

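No paired analysis was possible because each group held 1 library and no test was run. The H3K27ac over H3K27me3 ratio of median widths went from 2.02 to 0.987, near equality, among regions with at least 20 normalised tags. It was 2.21 in the upper 50% of each list by score and 1.65 in lists of equal length. The ratio of median tags was 2.09, 4.17 and 2.32 under the same settings. Windows dominated by H3K27ac stayed within 1.5 times of 10098 except with windows of 1 Mb, where there were 1486 of 2831. Windows dominated by H3K27me3 numbered 3106 from regions with at least 20 tags, 7269 with windows of 50 kb, 406 with windows of 1 Mb and 7392 with tags scaled to equal totals. The share of H3K27ac regions within 10 kb of H3K27me3 was 8.93% over the whole list. It was 3.76% from regions with at least 20 tags, 6.45% in the upper 50%, 7.44% in lists of equal length and 7.48% without contigs and gaps. It was 3.11% within 1 kb and 2.09% as overlap. For H3K27me3 regions near H3K27ac the share was 10.2%, and 8.99%, 6.70%, 10.7%, 8.71%, 2.14% and 1.23% in the same order. The log2 ratio of chromosome X, 3.97, was 4.55 from regions with at least 20 tags, 4.11 in the upper 50%, 4.14 in lists of equal length, 4.65 without contigs and gaps and 2.22 with tags scaled to equal totals. Without its region of most tags, an alternative added after seeing the data, it was 3.36. It was the highest chromosome, and Y the lowest, in each of these 6 settings. Beyond the filters' own construction, the cause of these shifts was not tested. With 1 tag counting 0.573 normalised tags in H3K27ac and 0.300 in H3K27me3, regions near the threshold rest on about 9 and 13 tags.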
